A study of Bos taurus with 6 samples.

Results

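The genes described here are 35 named regulators and structural components of the G2/M transition and of mitosis. They were chosen by gene symbol with earlier results of these data known, so their counts beside all genes are a description. All 35 were found among the 20958 genes of the deposited count table. Their RNA was measured by sequencing in BEND cells, a bovine cell line of the endometrial epithelium. In 3 libraries the cells had received a miR-200b mimic by transfection (bta-miR-200b, given as a synthetic duplex of the mature microRNA), and in the other 3 a negative-control mimic, here called NC. Apart from the transfected RNA the labels describe both groups alike, as the same line grown in DMEM with fetal bovine serum, and give "Cell apoptosis" as the treatment of both. They give no dose, no time after transfection and no statement that the replicates were separate cultures, so the spread behind each p-value may be technical.

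Entry into mitosis is driven by CDK1 bound to cyclins A and B. WEE1-type kinases hold it inactive and CDC25 phosphatases release it. Polo-like and Aurora kinases then build the spindle, kinetochores attach chromosomes to it, the spindle checkpoint delays anaphase until attachment is complete, and the anaphase-promoting complex with CDC20 ends mitosis by marking cyclin B and securin for destruction. Most of these genes are transcribed in a wave late in the cycle, through the MYBL2-containing MuvB complex and FOXM1, so their RNA is high in dividing and low in resting cell populations.

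The libraries held 19212694 to 21129547 counts. Immune and endothelial markers were near 0 in both groups, and the summed level of neither list passed 6.30 CPM (reads scaled to a common library total with TMM factors) in any library. PTPRC and CD3E had 0 reads, and CD14 and PECAM1, at means under 4 CPM, were called lower with the mimic in edgeR. DESeq2 and limma-voom called 0 immune markers lower. The keratins KRT8, KRT18 and KRT19 were abundant, and the other epithelial markers had fewer reads than these keratins in both groups. CDH1 had 2248 reads in the mimic group and 671 in the NC group, KRT7 had 135 and 13, EPCAM had 155 and 3, ESRP1 had 12 and 0, and CLDN4 had none in either group. Of 8 epithelial markers 6 were tested and 5 were called higher, against 4.3% of all genes tested. The summed level of the 8 was 10430 to 11852 CPM in mimic libraries and 8587 to 9303 CPM in NC libraries. The 9 stromal markers ranged in abundance from THY1, with 306 reads in the mimic group and 320 in the NC group, to COL1A2, with 724781 and 694531. Their summed level was 23630 to 26685 CPM over the libraries of both groups, above that of the 8 epithelial markers in every library. Of the 9 stromal markers, 3 were called lower with the mimic and 0 higher, against 2.15% and 4.3% of all genes tested.

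Of the 35 G2/M and mitosis genes, 11 were more abundant with the miR-200b mimic and 24 did not pass the test. All 35 passed the filter on low counts and had a log2 fold change (mimic over NC) above 0, against 50.3% of the 12217 genes tested. In edgeR's quasi-likelihood test, with p-values adjusted over all genes tested by the Benjamini-Hochberg method, 11 rose and none fell at an adjusted p under 0.05. The 11 make up 31.4% of the members, against the 4.3% of all genes tested that were called higher and the 2.15% called lower. None was lower at an unadjusted p under 0.05 either, nor by DESeq2 or limma-voom, and each of those tools called 11 higher. At an unadjusted p under 0.05, 20 of the 35 were higher. Of the 12217 genes tested, 1278 were higher and 985 lower at that threshold. The genes that rose were CCNA2, TTK, CENPF, KIF11, KIF2C, ASPM, KIF23, ANLN, IQGAP3, TOP2A and MKI67, by 1.19-fold to 1.33-fold. The median log2 fold change was 0.21 over the members and 0.00090 over all genes tested. These transcripts were already present in NC cells, where their means ran from 8.48 CPM for CDC25C to 418 CPM for ANLN.

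In bulk RNA, a larger share of cells in G2 and mitosis and more of these transcripts per cell cannot be told apart. The count depended on single libraries. It was 4 without mimic replicate 2 (2.61% of all genes then tested were called higher), 3 without NC replicate 1 (2.23%) and 5 without NC replicate 3 (3.29%). It was 16 without mimic replicate 3 (5.92%) and 16 without NC replicate 2 (4.76%). Ribosomal protein genes, which can show differences in RNA quality, lay the other way, with 0 of 33 above a log2 fold change of 0. Their median was −0.15, with 2 lower calls (2.15% of all genes tested were called lower). That count of lower calls was 0 without mimic replicate 2 (0.665% of all genes then tested were called lower) or NC replicate 1 (0.753%). It was 8 without mimic replicate 1 (1.97%), 2 without mimic replicate 3 (3.35%), 1 without NC replicate 2 (3.16%) and 5 without NC replicate 3 (1.24%). Their summed level was 27492 to 29518 CPM in mimic libraries and 29317 to 32422 CPM in NC libraries. Of 9 stromal markers 3 were called lower and 2 had a log2 fold change above 0, against 2.15% and 50.3% of all genes tested. Their median was −0.15. Their summed level was 23630 to 26345 CPM in mimic libraries and 25295 to 26685 CPM in NC libraries. The part of these lists, or of the epithelial markers, in the higher calls among the 35 genes was not tested.

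**Figure D1:**
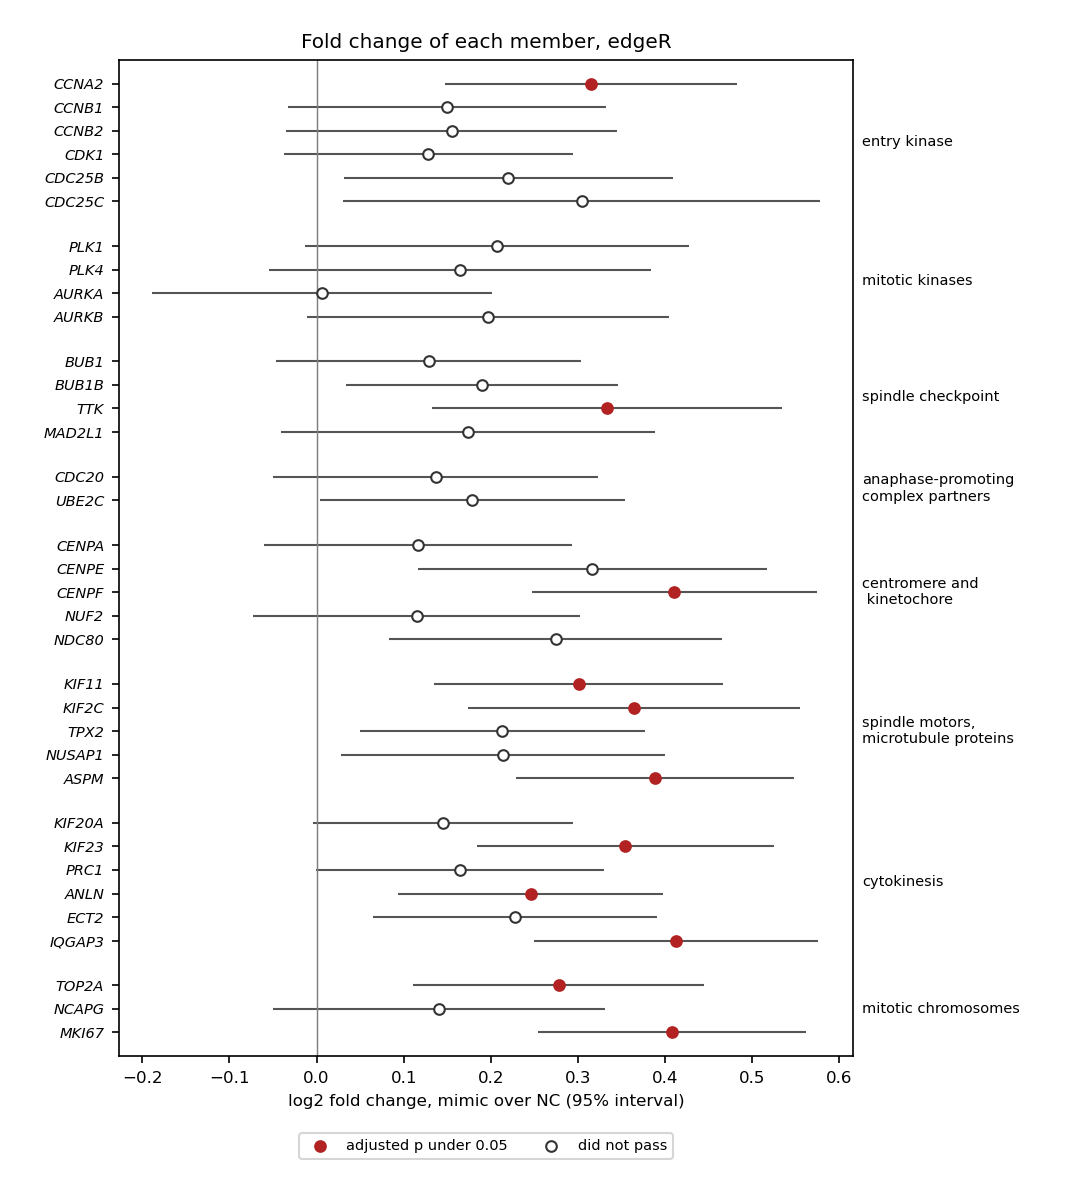
Log2 fold change of mimic over NC for each of the 35 genes, grouped by role, with its 95% interval from edgeR's fit (3 libraries per group). Filled points passed an adjusted p of 0.05, open points did not, and every point lies to the right of 0, from 0.0066 for AURKA to 0.41 for IQGAP3.

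Of 6 genes of the kinase that starts mitosis and of its activators, 1 rose. CCNA2, which encodes cyclin A2 of S phase and G2, had 103, 119 and 98.2 CPM in mimic replicates 1 to 3, against 83.1, 92.7 and 81.7 CPM in NC replicates 1 to 3. Every mimic library lay above every NC library, and the rise was 1.24-fold (log2 fold change 0.32 ± 0.08 SE, adjusted p 0.0179). Leaving out mimic replicate 2 gave an adjusted p of 0.199, leaving out NC replicate 1 gave 0.128 and leaving out NC replicate 3 gave 0.0962. CCNA2 overlaps EXOSC9 in the RefSeq gene table, judged by gene start and end without regard to strand or exons. Whether reads were counted by strand is not stated, so reads of EXOSC9 may be among its counts. The same limit holds for all 5 called genes that overlap another gene there, CCNA2, TTK (LOC132346203), CENPF (LOC112441860), KIF23 and ANLN.

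The cyclin B genes and CDK1 did not pass. CCNB1, whose product carries CDK1 into mitosis, had 128, 133 and 113 CPM in mimic libraries, against 103, 131 and 103 CPM in NC libraries. The groups overlapped because NC replicate 2 stood well above the other NC libraries. Its fold was 1.11 (95% interval 0.978 to 1.26), and without NC replicate 2 it was called, at an adjusted p of 0.0359. CCNB2, the second mitotic cyclin B, had 67.5, 67.5 and 56.3 CPM in mimic libraries, against 57.7, 64.0 and 50.1 CPM in NC libraries. CDK1, the kinase itself, had 72.5, 87.6 and 81.6 CPM in mimic libraries, against 71.3, 78.2 and 71.6 CPM in NC libraries. Both overlapped between the groups, with folds of 1.11 for CCNB2 (interval 0.976 to 1.27) and 1.09 for CDK1 (interval 0.974 to 1.23).

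The CDC25 phosphatases, which activate CDK1, did not pass. CDC25B averaged 55.6 ± 6.62 CPM in mimic libraries and 47.7 ± 4.53 CPM in NC libraries (SD, n = 3 each), and it was called without mimic replicate 3 (adjusted p 0.0203) and without NC replicate 2 (adjusted p 0.0339). CDC25C, the scarcest member, averaged 10.5 ± 0.958 CPM in mimic libraries and 8.48 ± 1.15 CPM in NC libraries. Its groups did not overlap, but its adjusted p was 0.207.

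None of the 4 mitotic kinases PLK1, PLK4, AURKA and AURKB passed, in edgeR, DESeq2 or limma-voom, and none had an unadjusted p under 0.05 in edgeR. PLK1, a kinase of centrosome maturation, mitotic entry and cytokinesis, had 82.2, 78.2 and 63.0 CPM in mimic libraries, against 57.3, 75.6 and 60.6 CPM in NC libraries. Mimic replicate 3 lay near the low NC libraries and NC replicate 2 near the high mimic ones. PLK1 was called when either of these was left out, at an adjusted p of 0.0110 without mimic replicate 3 and 0.0078 without NC replicate 2. AURKB, the Aurora kinase of the inner centromere and midbody, had 41.0, 38.3 and 31.6 CPM in mimic libraries, against 30.7, 36.1 and 30.0 CPM in NC libraries, with an adjusted p of 0.304 that became 0.0407 without mimic replicate 3. PLK4, the kinase that starts centriole duplication, averaged 32.6 ± 5.34 CPM in mimic libraries and 29.0 ± 2.72 CPM in NC libraries.

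AURKA, the Aurora kinase of centrosomes and spindle poles, had the smallest fold of the 35 genes. It had 47.6, 48.4 and 40.3 CPM in mimic libraries, against 44.0, 51.3 and 40.4 CPM in NC libraries. The lowest library of each group was replicate 3 and the highest was replicate 2. The fold was 1.005, with a 95% interval of 0.877 to 1.15, and the log2 fold change of 0.0066 turned to −0.0036 with upper quartile scaling and was also below 0 in 4 of the 6 fits that left out a library, the lowest being −0.068 without NC replicate 3.

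Of the 4 spindle checkpoint genes, 1 rose. TTK, the kinase that recruits checkpoint proteins to unattached kinetochores, had 39.98, 50.2 and 39.1 CPM in mimic libraries, against 31.3, 35.6 and 35.7 CPM in NC libraries. The groups did not overlap, and mimic replicate 2 stood apart above the rest. The rise was 1.26-fold, with an adjusted p of 0.0401 that became 0.363 when mimic replicate 2 was left out, 0.279 for NC replicate 1, 0.0758 for NC replicate 3 and 0.0512 with library totals as the scaling. BUB1B, which encodes BubR1, the inhibitor of CDC20 within the checkpoint complex, had 107, 120 and 112 CPM in mimic libraries, against 92.2, 106 and 98.8 CPM in NC libraries. Its groups just failed to overlap, at a fold of 1.14 (interval 1.02 to 1.27) and an adjusted p of 0.156. BUB1, the kinase that loads shugoshin at centromeres, and MAD2L1, which encodes the checkpoint protein Mad2, overlapped between the groups at folds of 1.09 and 1.13.

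The partners of the anaphase-promoting complex did not pass in edgeR, DESeq2 or limma-voom. CDC20, its activator in mitosis, had 148, 143 and 117 CPM in mimic libraries, against 119, 140 and 113 CPM in NC libraries. Here too mimic replicate 3 lay with the low NC libraries and NC replicate 2 with the high mimic libraries. UBE2C, its ubiquitin-conjugating enzyme, averaged 81.8 ± 7.25 CPM in mimic libraries and 72.3 ± 7.28 CPM in NC libraries, and the single unadjusted p under 0.05 of this pair was its 0.0458.

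**Figure D2:**
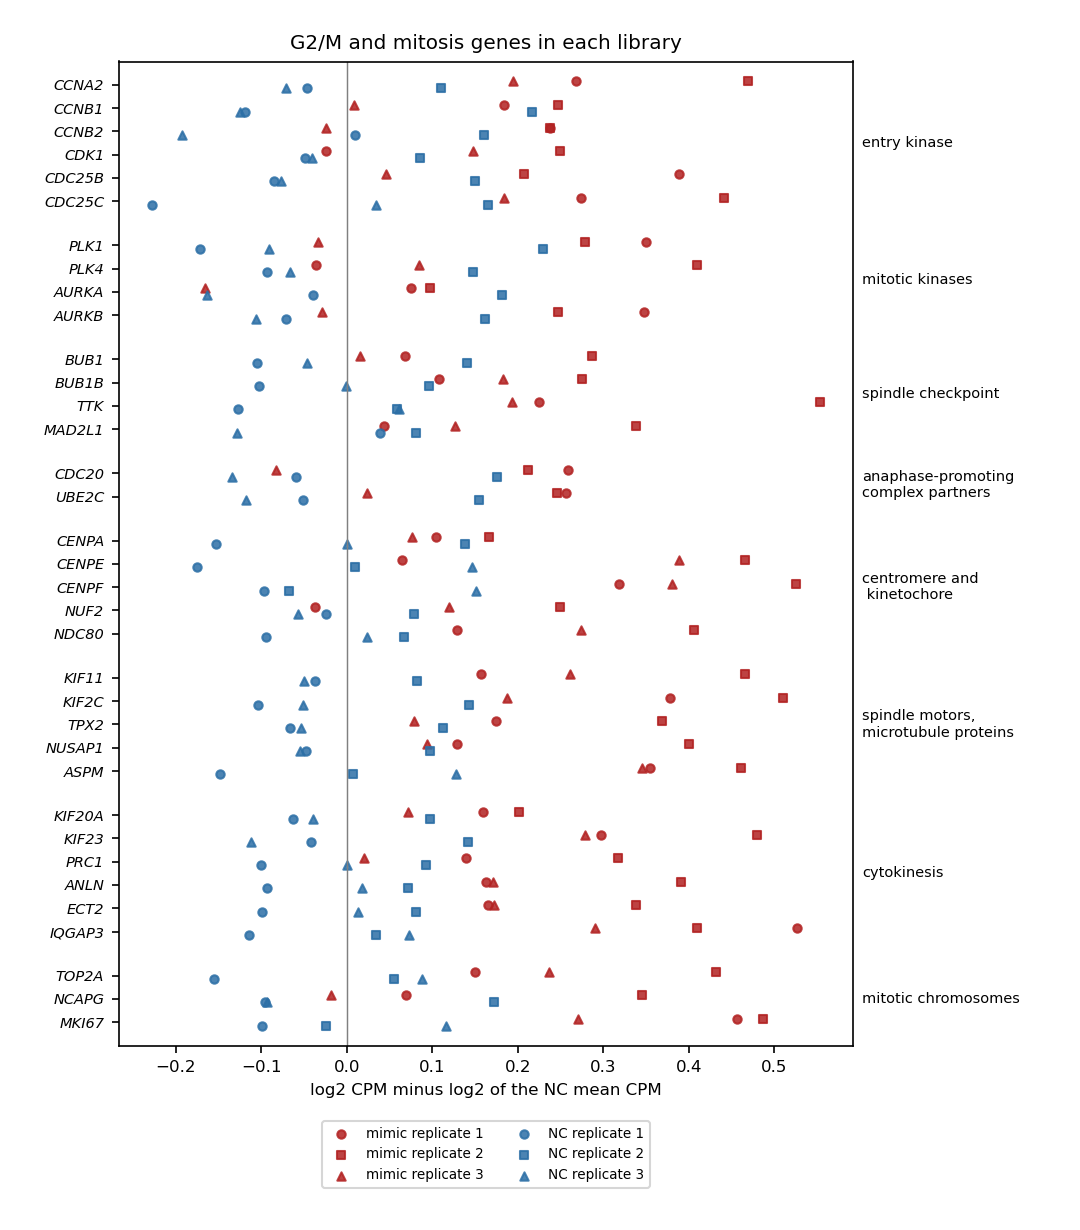
Level of each of the 35 genes in every library, as log2 CPM minus log2 of the gene's NC mean CPM; red symbols are the 3 mimic libraries, blue symbols the 3 NC libraries, and the symbol shape gives the replicate number. The red and blue symbols are fully separated for 15 genes, and in 19 of the 20 others mimic replicate 3 (red triangle) or mimic replicate 1 (red circle) lies below NC replicate 2 (blue square).

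Of 5 centromere and kinetochore genes, 1 rose. CENPF, a large kinetochore protein that accumulates in G2, had 158, 182 and 165 CPM in mimic libraries, against 118, 121 and 141 CPM in NC libraries. The groups were well apart, and NC replicate 3, not replicate 2, was the highest NC library. The rise was 1.33-fold (log2 fold change 0.41 ± 0.08 SE, adjusted p 0.00168). CENPE, the kinetochore motor that brings chromosomes to the spindle equator, averaged 90.5 ± 12.8 CPM in mimic libraries and 72.6 ± 8.05 CPM in NC libraries. Its fold of 1.25 had an adjusted p of 0.0524, below 0.05 when mimic replicate 1 (0.0096), mimic replicate 3 (0.0370), NC replicate 2 (0.0112) or NC replicate 3 (0.0380) was left out, and 0.0156 without a filter on low counts.

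NDC80 and NUF2 encode partners in the 1 complex that holds microtubules at the kinetochore. NDC80 averaged 33.9 ± 3.25 CPM in mimic libraries and 28.1 ± 1.61 CPM in NC libraries, without overlap, at an adjusted p of 0.0849 that became 0.0361 without mimic replicate 1. NUF2 averaged 35.2 ± 3.48 CPM in mimic libraries and 32.5 ± 1.61 CPM in NC libraries, with overlap. The 95% intervals of their folds, 1.06 to 1.38 for NDC80 and 0.951 to 1.23 for NUF2, overlap, and the difference between them was not tested. CENPA, the histone H3 variant that marks centromeres, averaged 47.1 ± 1.502 CPM in mimic libraries and 43.5 ± 4.37 CPM in NC libraries.

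Of 5 genes of spindle motors and microtubule-binding proteins, 3 rose. All 5 were higher at an unadjusted p under 0.05, against 1278 of the 12217 genes tested. ASPM, a spindle-pole protein whose loss causes microcephaly in humans, had 139, 149 and 138 CPM in mimic libraries, against 98.0, 109 and 119 CPM in NC libraries. The lowest mimic library stood clear of the highest NC library, and the rise was 1.31-fold with an adjusted p of 0.00214, or 0.0525 without NC replicate 1. KIF2C, the kinesin that takes microtubule ends apart at centromeres, had 51.6, 56.6 and 45.2 CPM in mimic libraries, against 37.0, 43.9 and 38.3 CPM in NC libraries. KIF11, the kinesin that pushes spindle poles apart, had 119, 147 and 127 CPM in mimic libraries, against 104, 113 and 103 CPM in NC libraries.

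Neither kinesin overlapped between the groups, though mimic replicate 3 of KIF2C came close to NC replicate 2. KIF2C rose 1.29-fold at an adjusted p of 0.0156, lost when mimic replicate 1 (0.0565), mimic replicate 2 (0.163), NC replicate 1 (0.138) or NC replicate 3 (0.0783) was left out. KIF11 rose 1.23-fold at an adjusted p of 0.0231, lost when mimic replicate 2 (0.239), NC replicate 1 (0.146) or NC replicate 3 (0.102) was left out. TPX2, the activator of Aurora A on spindle microtubules, had a fold of 1.16 and an adjusted p of 0.124, and it was called without mimic replicate 3 (0.0175) and without NC replicate 2 (0.0279). NUSAP1, a microtubule-bundling protein near chromosomes, had a fold of 1.16 and an adjusted p of 0.187.

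Of 6 genes of the central spindle and cytokinesis, 3 rose. IQGAP3, a scaffold protein of the IQGAP family, had 117, 108 and 99.2 CPM in mimic libraries, against 74.96, 83.1 and 85.3 CPM in NC libraries. It had the largest fold of the 35 genes, 1.33, with an adjusted p of 0.00154, and mimic replicate 1 was its highest library. KIF23, the kinesin of the centralspindlin complex, had 79.7, 90.4 and 78.7 CPM in mimic libraries, against 63.0, 71.6 and 59.99 CPM in NC libraries. ANLN, which encodes the actin- and septin-binding anillin of the cleavage furrow, had 468, 549 and 471 CPM in mimic libraries, against 392, 440 and 423 CPM in NC libraries.

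All 3 separated the groups. KIF23 rose 1.28-fold at an adjusted p of 0.00885, lost when mimic replicate 2 (0.104), NC replicate 1 (0.0722) or NC replicate 3 (0.0708) was left out. ANLN rose 1.19-fold at an adjusted p of 0.0462. Its call was lost when mimic replicate 2 (0.358), NC replicate 1 (0.344) or NC replicate 3 (0.0989) was left out, and with upper quartile (0.0580) or library-total (0.0554) scaling. ECT2, an exchange factor needed for cytokinesis, did not overlap between the groups at a fold of 1.17 and an adjusted p of 0.0937. PRC1, the bundler of central spindle microtubules, and KIF20A, its kinesin partner at the midzone, had folds of 1.12 and 1.11 with overlap. KIF23 and ANLN overlap PAQR5 and MATCAP2 in the RefSeq gene table, and KIF20A overlaps CDC23, itself a subunit of the anaphase-promoting complex.

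Of 3 genes of mitotic chromosomes, 2 rose. MKI67, which encodes the Ki-67 protein that coats mitotic chromosomes and serves as a proliferation marker, had 523, 534 and 459 CPM in mimic libraries, against 356, 374 and 413 CPM in NC libraries. Its lowest mimic library stood clear of its highest NC library, and it had the smallest adjusted p of the 35, 0.000959. TOP2A, which encodes the topoisomerase that untangles sister chromatids, had 191, 233 and 203 CPM in mimic libraries, against 155, 179 and 183 CPM in NC libraries. The groups did not overlap, and the 1.21-fold rise had an adjusted p of 0.0391, lost when mimic replicate 2 (0.319), NC replicate 1 (0.353) or NC replicate 3 (0.0502) was left out and with library totals as the scaling (0.0512). NCAPG, a condensin subunit, averaged 96.3 ± 13.0 CPM in mimic libraries and 87.4 ± 9.59 CPM in NC libraries, with overlap.

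Across the 14 alternative scalings, filters, tests and left-out libraries, 3 genes, MKI67, IQGAP3 and CENPF, were called every time. ASPM was called in 13 of the 14. The other 7 called genes lost the call without mimic replicate 2, without NC replicate 1 or without NC replicate 3, whichever of these was left out. Of the 24 genes that did not pass, 16 were called in none of the 14.

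**Figure D3:**
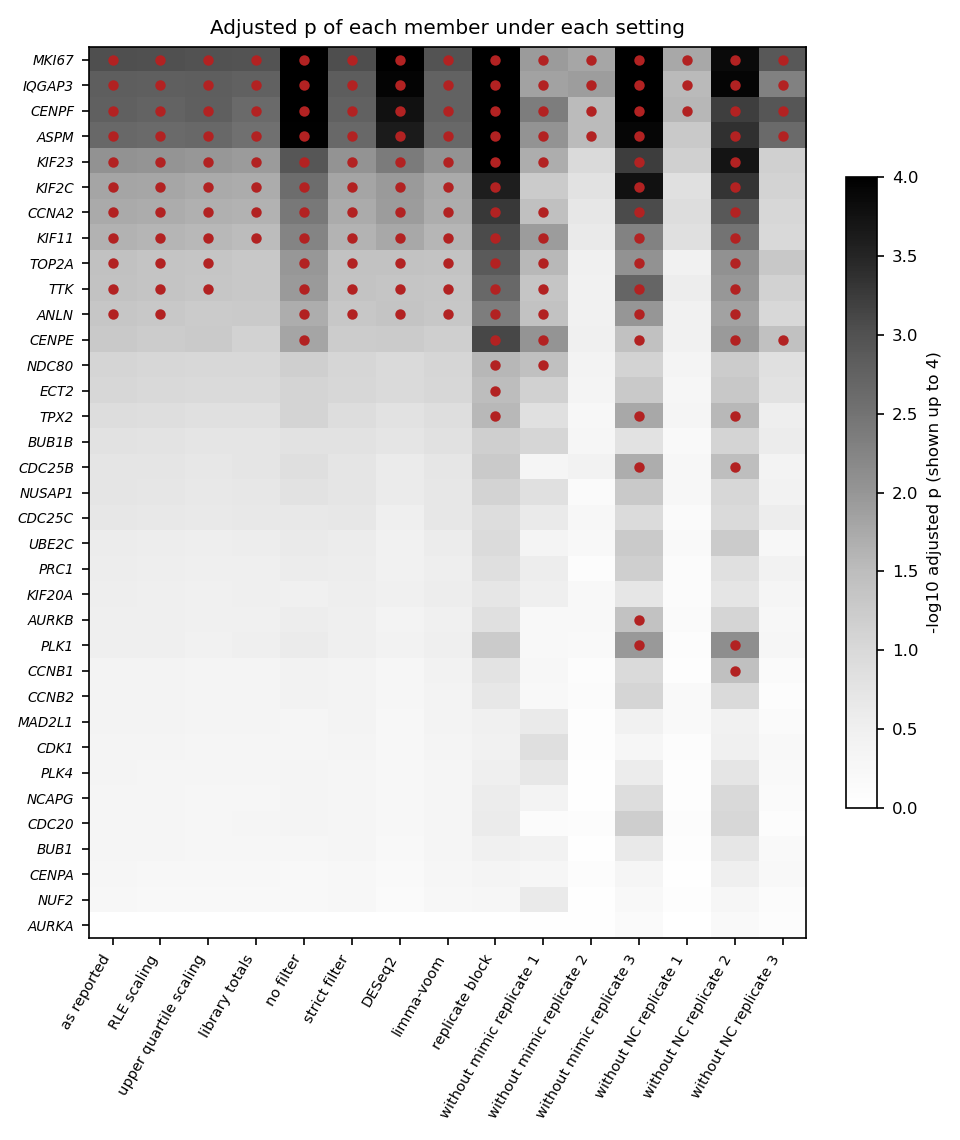
Adjusted p of each gene (rows, ordered by the p of the reported fit) under the reported fit and the 14 alternatives (columns), shaded as −log10 and marked with a red dot where it was under 0.05. Dots run across the whole row for MKI67, IQGAP3 and CENPF, and columns without mimic replicate 2, NC replicate 1 or NC replicate 3 hold 4, 3 and 5 dots.

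The members varied together among libraries of 1 group as well as between the groups. Mimic replicate 2 was the highest mimic library for 29 of 35 genes, and NC replicate 2 the highest NC library for 28 of 35, against 27.8% and 36.4% of all genes tested. Mimic replicate 3 was highest in its group for none of the 35 and lowest for 23. NC replicate 1 was likewise highest for none and lowest for 23. The median within-group SD on the log2 scale was 0.13 for the members and 0.11 for all genes tested.

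Taken pair by pair, mimic replicate 2 lay above NC replicates 1, 2 and 3 in 35, 34 and 35 of the 35 genes. Mimic replicate 1 lay above them in 34, 26 and 34 genes. Mimic replicate 3 lay above them in 32, 19 and 34 genes. The single pair without a clear majority was therefore mimic replicate 3 with NC replicate 2, whose median difference was 0.04 on the log2 scale, against 0.44 between mimic replicate 2 and NC replicate 1. Over all genes tested, a mimic library lay above an NC library in 49.6% to 51.3% of genes.

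Groups did not overlap, with mimic higher, for 15 of the 35 genes (42.9%), against 11.4% of all genes tested. These were the 11 called genes and CDC25C, BUB1B, NDC80 and ECT2. Among the 24 genes that did not pass, NC replicate 2 was the highest NC library for 23, while among the 11 called genes it was so for 5 and NC replicate 3 for the other 6. The calls and these orders come from the same values, so this is a description.

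As a share of all counts, the 35 genes took 0.377%, 0.428% and 0.367% of mimic replicates 1 to 3, against 0.308%, 0.348% and 0.328% of NC replicates 1 to 3. MKI67 and ANLN were the most abundant by counts, and without them the shares were 0.280%, 0.319% and 0.274% in mimic libraries, against 0.233%, 0.267% and 0.244% in NC libraries. Both sums kept the groups apart, the second by a narrow margin between mimic replicate 3 and NC replicate 2. The mean of the centred log2 CPM over the 35 genes was 0.09, 0.24 and 0.02 in mimic libraries, against −0.20, −0.0050 and −0.14 in NC libraries, with a pooled within-group SD of 0.11.

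**Figure D4:**
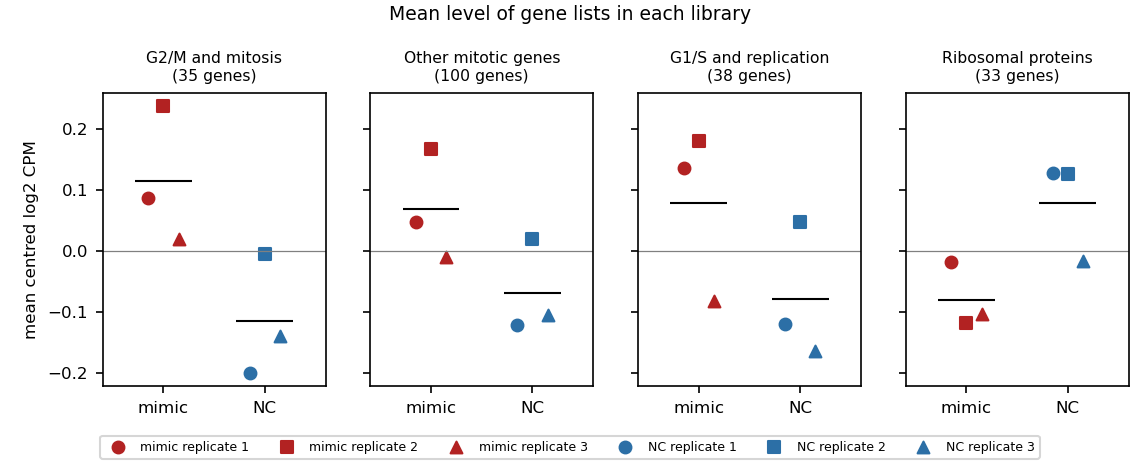
Mean centred log2 CPM of 4 gene lists in each library (mimic left, NC right; horizontal bars are the means of 3 libraries). The G2/M and mitosis genes run from 0.02 to 0.24 in mimic libraries and from −0.20 to −0.0050 in NC libraries, the other mitotic genes and the G1/S genes overlap between the groups, and the ribosomal protein genes lie lower in mimic libraries by a small margin.

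A wider set of 100 mitotic genes outside the 35 leaned the same way, and its difference from the 35 was not tested. Of the 100, 9 rose, none fell and 91 did not pass, so 9% were called higher against 4.3% of all genes tested. A log2 fold change above 0 was found for 84 of the 100, with a median of 0.14, and groups did not overlap, with mimic higher, for 25 of them (25%, against 11.4% of all genes tested) and with mimic lower for 3. At an unadjusted p under 0.05, 32 were higher and 3 lower, against 1278 and 985 of the 12217 genes tested. The called number was 3 when mimic replicate 2 was left out (2.61% of all genes then tested were called higher) and 22 for mimic replicate 3 (5.92%). It was 1 for NC replicate 1 (2.23%), 20 for NC replicate 2 (4.76%) and 4 for NC replicate 3 (3.29%).

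The rises in this wider set were spread over several functions. Among 19 other genes of the spindle and of cytokinesis, 4 rose, and all 19 had a log2 fold change above 0. CIT, the citron kinase of the midbody, rose 1.34-fold, with 69.9, 73.1 and 65.0 CPM in mimic libraries, against 49.5, 53.5 and 51.8 CPM in NC libraries. It separated the groups widely and was called under every alternative. KIF18B, a kinesin that shortens astral microtubules, CEP55, a midbody protein of abscission, and HMMR, a spindle assembly factor, rose 1.38-fold, 1.27-fold and 1.22-fold. Each of these 3 lost its call when mimic replicate 2 or NC replicate 1 was left out, at adjusted p values of 0.0760 and 0.0935 for KIF18B, 0.292 and 0.255 for CEP55 and 0.383 and 0.349 for HMMR. KIF18B also lost it without mimic replicate 1 (0.0819), and CEP55 (0.108) and HMMR (0.0648) without NC replicate 3. HMMR, at an adjusted p of 0.0499, was also over 0.05 with RLE, upper quartile or library-total scaling, the strict filter, DESeq2 or limma-voom, at 0.0654 at most of these.

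Of 15 genes of condensin, cohesin and separase, 2 rose. ESPL1, which encodes separase, the protease that cuts cohesin at anaphase, had 106, 101 and 85.9 CPM in mimic libraries, against 62.7, 79.3 and 76.5 CPM in NC libraries. NCAPD2, a condensin subunit, had 102, 104 and 91.5 CPM in mimic libraries, against 72.4, 80.7 and 78.8 CPM in NC libraries. Both separated the groups, at 1.34-fold and 1.28-fold, and both had an adjusted p of 0.0718 without NC replicate 1. ESPL1 also had 0.0542 without mimic replicate 1.

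The remaining lists held few calls. Of 13 other genes of mitotic entry, 1 rose, CCNF, which encodes the substrate-binding cyclin F of a ubiquitin ligase, by 1.24-fold, and it lost its call without mimic replicate 1 (adjusted p 0.137), mimic replicate 2 (0.134), NC replicate 1 (0.187) or NC replicate 3 (0.138). WEE1, the kinase that holds CDK1 inactive, averaged 32.9 CPM in mimic libraries and 26.7 CPM in NC libraries, without overlap, at an adjusted p of 0.0661, below 0.05 when mimic replicate 1 (0.0285) or NC replicate 2 (0.0170) was left out, and 0.0409 without a filter on low counts. Of 7 other checkpoint genes, 1 rose, KNTC1, which brings dynein to kinetochores, by 1.31-fold, at an adjusted p of 0.0307, lost when mimic replicate 2 (0.319), NC replicate 1 (0.160) or NC replicate 3 (0.0709) was left out. Of 17 genes of the anaphase-promoting complex, ANAPC1 was called at an adjusted p of 0.0498, which was over 0.05 with RLE, upper quartile or library-total scaling, the strict filter, limma-voom or any 1 library left out other than mimic replicate 3, at 0.347 at most. That list had a median of 0.01. None of 29 other kinetochore and inner centromere genes was called by edgeR, DESeq2 or limma-voom. In edgeR 5 of the 29 were higher at an unadjusted p under 0.05, against 1278 of the 12217 genes tested. BIRC5, which encodes survivin of the chromosomal passenger complex, had a fold of 1.08 (interval 0.968 to 1.21).

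**Figure D5:**
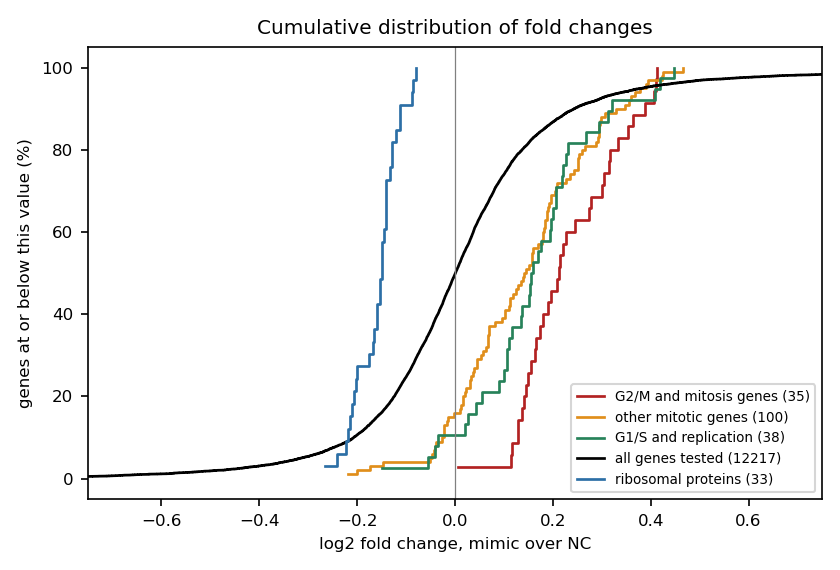
Cumulative share of genes (vertical axis, percent) at or below a given log2 fold change of mimic over NC (horizontal axis) for 5 sets of genes. All genes tested cross 50% close to 0, the 35 G2/M and mitosis genes at 0.21, the 100 other mitotic genes at 0.14, the G1/S and replication genes at 0.16 and the ribosomal protein genes at −0.15.

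None of 14 genes of the transcription machinery for the G2/M wave passed in edgeR, DESeq2 or limma-voom. In edgeR 2 of the 14 were higher at an unadjusted p under 0.05, against 1278 of the 12217 genes tested. FOXM1, a forkhead factor of late cell cycle genes, had 33.04, 30.6 and 22.7 CPM in mimic libraries, against 21.3, 27.5 and 22.0 CPM in NC libraries. MYBL2, which encodes B-Myb, had 193, 193 and 141 CPM in mimic libraries, against 133, 175 and 128 CPM in NC libraries. For both genes mimic replicate 3 was low and NC replicate 2 high, so the groups overlapped. The adjusted p of FOXM1 was 0.208, or 0.00179 when mimic replicate 3 was left out and 0.00746 when NC replicate 2 was. That of MYBL2 was 0.380, or 0.000325 when mimic replicate 3 was left out and 8.2e-05 when NC replicate 2 was. LIN9, a MuvB core subunit, averaged 16.7 CPM in mimic libraries and 15.8 CPM in NC libraries.

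The G1/S and replication genes, which act earlier in the cell cycle, had a median log2 fold change of 0.16, with 34 of 38 above 0, and 4 rose (10.5%, against 4.3% of all genes tested). CDK6 and CCND1, the kinase and cyclin D1 of G1 progression, rose 1.36-fold and 1.34-fold and were called under every alternative. MCM10, which loads replication factors, and POLE, the leading-strand polymerase, were called at adjusted p values of 0.0439 and 0.0445, which were over 0.05 without mimic replicate 1, mimic replicate 2, NC replicate 1 or NC replicate 3, at up to 0.367 for MCM10 and 0.346 for POLE. With upper quartile scaling they were 0.0511 and 0.0507, and MCM10 was also over 0.05 with library totals, DESeq2 or limma-voom, at 0.0584 at most. The number called in this list was 2 when any of those 4 libraries was left out, 15 when mimic replicate 3 was left out and 12 for NC replicate 2, against 2.23% to 5.92% of all genes tested over the 6 fits. The difference between this list and the 35 mitotic genes was not tested.

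Inhibitors of cyclin-dependent kinases and genes of quiescence did not pass. Of 10 such genes CDKN1C was at 0 reads and 9 were tested, with a median log2 fold change of 0.0039, and 0 were called by edgeR, DESeq2 or limma-voom. At an unadjusted p under 0.05, 0 were higher and 1 was lower, against 1278 and 985 of the 12217 genes tested. CDKN1A, which encodes the inhibitor p21, had 379, 350 and 399 CPM in mimic libraries, against 374, 354 and 389 CPM in NC libraries. Its fold was 1.01, with a 95% interval of 0.914 to 1.12. Within each group, replicate 2 was the lowest library for CDKN1A, whereas it was the highest for most of the 35 mitotic genes. Over the 9 tested genes, the mean centred log2 CPM was −0.06, −0.08 and 0.11 in mimic replicates 1 to 3. It was 0.04, −0.0082 and −0.0029 in NC replicates 1 to 3. A relation of these orders to the mitotic genes was not tested.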

How the data were processed

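RNA sequencing counts of 6 BEND libraries were analysed. Per the labels' protocols, a stranded TruSeq mRNA kit was used on TRIzol-extracted RNA. The authors deposited raw counts per gene. Per the submitters' processing notes, HTSeq, HISAT2 and Trimmomatic were used, with no version or role. No build or strand setting is stated, so coordinates are left out. Of 20958 genes, 26 had symbols stored as dates, restored through their GeneID, and ANAPC2 was matched by GeneID. Overlapping neighbours come from a RefSeq table (assembly ARS-UCD2.0), which held 20503 of the GeneIDs. Of the 35 members, 14 overlap another gene there, by gene start and end without regard to strand or exons.

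Genes were kept by filterByExpr (minimum count 10, minimum total 15), leaving 12217. Under R 4.3.3, edgeR 4.0.16 (with limma 3.58.1) gave a two-sided quasi-likelihood F test for the group, with robust dispersion, TMM scaling and Benjamini-Hochberg adjusted p-values called at 0.05. Fold changes are fitted values, standard errors are the log2 fold change over the square root of F, and 95% intervals use the fit's degrees of freedom. Centred log2 CPM used a prior count of 2. Library pairs differed by more than sampling noise (chi-square per degree of freedom of at least 5.13). Within a group the value was 5.13 to 11.9. Between the groups it was 8.55 for mimic replicate 3 with NC replicate 3 and 14.1 to 22.1 for the other pairs.

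Members and lists were chosen with earlier results of these data known, so lists are described by counts and medians beside all genes tested. The text gives per-library values for called members and fixed regulators, and names up to 4 called genes of each other list with fixed regulators. NDC80, NUF2 and other uncalled members are given to account for all 35. Alternatives were limma-voom, DESeq2 1.42.0, a replicate block, each library left out, RLE, upper quartile and library-total scaling, no filter and a strict filter (CPM of 1 or more in 3 libraries).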

Additional observations from a re-analysis of the deposited data

How the results depend on the processing

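The median log2 fold change of the 35 genes stayed between 0.17 and 0.27 under all alternatives, and the median of all genes tested moved by less than 0.01. The number of the 35 called higher was 3 to 16 with 1 library left out, and 8 to 15 under the other alternatives. None was called lower. Over all genes tested, leaving out a library gave 275 to 731 higher calls (2.23% to 5.92%) and 82 to 414 lower calls (0.665% to 3.35%). The other mitotic lists then had 1 to 22 higher, the G1/S genes 2 to 15 higher and the ribosomal proteins 0 to 8 lower. With the replicate block these were 816 (6.68% of all genes tested), 496 (4.06%), 22, 9 and 9. The block called 15 of the 35 genes, which adds CENPE, NDC80, ECT2 and TPX2. The block also called FOXM1 (adjusted p 0.0303), MYBL2 (0.0021) and WEE1 (0.0143). The labels do not say that the numbers pair the samples, and the pairs did not all correlate. Deviations of same-numbered libraries from their group means correlated at −0.05, 0.13 and 0.19 across genes, and mimic replicates 2 and 3 correlated best with their own number but mimic replicate 1 with NC replicate 2 (0.17). Over the 35 genes the same-numbered correlations were 0.04, −0.07 and 0.52. Without a filter, 16 other mitotic genes were higher (4.04% of all genes then tested) and 6 ribosomal genes lower (2.22%). DESeq2 called 4 ribosomal genes lower (2.25% of all genes tested), and upper quartile scaling 2 G1/S genes higher (4.02% of all genes tested). The log2 fold change of AURKA was −0.0036 with upper quartile scaling and −0.068 to 0.10 with 1 library left out. Of 490 single-gene values under alternatives, 440 kept direction and side of the threshold, 27 lost a call, 18 gained one and 5, all of AURKA, changed sign. The causes were not tested. Shares of promoters with cell cycle motifs were planned but not run, since no promoter sequence was used here. At 3 libraries per group, ANLN was the single gene of the 35 that passed with a fold under 1.2.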
